A study of Mus musculus with 80 samples.

Results

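The 9 genes described here are the receptor subunits, kinases, transcription factor and feedback inhibitors of interleukin-6 (IL-6) signaling: Il6ra, Il6st, Jak1, Jak2, Stat3, Socs1, Socs2, Socs3 and Cish. They were chosen by gene symbol, 9 of the 15919 genes in the table of the sort comparison and 9 of the 16000 in the table of the preparation comparison, and each of them passed the filter on low counts in each fit over all groups. All mice carried the tamoxifen-inducible Cx3cr1(Jung)-cre/Ert2 and the NuTRAP allele, and all received tamoxifen at 100 mg/kg at about 3 months of age, after which Cx3cr1-expressing cells tag their ribosomes with eGFP. TRAP (translating ribosome affinity purification) pulls these ribosomes down with an anti-GFP antibody, and Input is the homogenate before the pull-down. In the sort comparison, RNA was taken from single brain hemispheres that were homogenized directly (Tissue, 4 mice), from an enzymatically dissociated suspension with no sort (Cell, the other hemispheres of the same 4 mice), or from suspensions enriched with CD11b microbeads on the autoMACS (4 mice), by autoMACS followed by the Tyto cartridge sorter (3 of those mice), by Tyto alone (5 mice) or by the FACSAria cytometer (4 mice, 3 of them also in the Tyto group). In the preparation comparison, the same 4 Tissue mice were set against 4 mice whose brains were dispersed by Dounce homogenization into cells, and against 4 further mice whose hemispheres were dissociated without or with transcription and translation inhibitors (actinomycin D, triptolide and anisomycin). Each preparation gave 1 Input and 1 TRAP library per mouse. Preparations compared, other than Cell against Tissue and with against without inhibitors, thus also differ in some or all of their mice. The tag reports every cell in which Cx3cr1-driven Cre was active, which includes macrophages at brain borders as well as microglia.

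IL-6 binds its receptor Il6ra, and the complex recruits Il6st (gp130), a subunit shared by the receptors of the whole cytokine family. Il6st holds the Janus kinases Jak1 and Jak2, which phosphorylate Stat3, a transcription factor that then enters the nucleus. Socs1, Socs2, Socs3 and Cish are short SH2-domain proteins that are transcribed in response to Stat factors and dampen the signal. Of them Socs3 binds Il6st and the kinases and is the main brake on IL-6, whereas Cish and Socs2 are best known as targets of Stat5. In brain, microglia and infiltrating myeloid cells carry Il6ra, while Il6st, Jak1 and Stat3 are made by most cell types.

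Libraries held 7129464 to 20168116 gene counts in the sort comparison and 2471448 to 14650287 in the preparation comparison. The shallowest were those of Dounce-TRAP. The summed level of 10 microglial markers (P2ry12, Tmem119 and others), as CPM (counts relative to library size, scaled by the TMM method), ran from 4872 to 6035 in Tissue-TRAP, from 32450 to 35480 in Cell-TRAP and from 39430 to 47300 across the TRAP libraries of the 4 sorts. That of 8 neuronal markers ran from 5194 to 5876 in Tissue-TRAP, from 113.7 to 319.2 in Cell-TRAP and from 3.189 to 9.165 after the sorts. None of these microglial or neuronal markers was at 0 throughout a group. In such bulk samples fewer cells of a type and less RNA per cell cannot be told apart, and the part of these shifts in the differences below is described with a second scaling, to microglial markers. Levels of Input and TRAP libraries were scaled separately and are compared only through fits that hold both.

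Set per kilobase of exon so that genes could be compared, the levels followed a different order in Tissue-TRAP and in Cell-TRAP. In Tissue-TRAP, Jak1 stood first at a mean of 29.3 CPM per kilobase, Stat3 second at 9.96, and Socs3 was at 1.97. In Cell-TRAP, Socs3 stood first at 187 ± 31.4 CPM per kilobase (SD, n = 4), above Jak1 at 87.6 ± 4.08 and Il6ra at 71.9 ± 5.55. Stat3 followed at 35.2, Il6st at 32.7 and Jak2 at 12.5, while Socs2, Socs1 and Cish lay between 0.805 and 1.29.

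**Figure D1:**
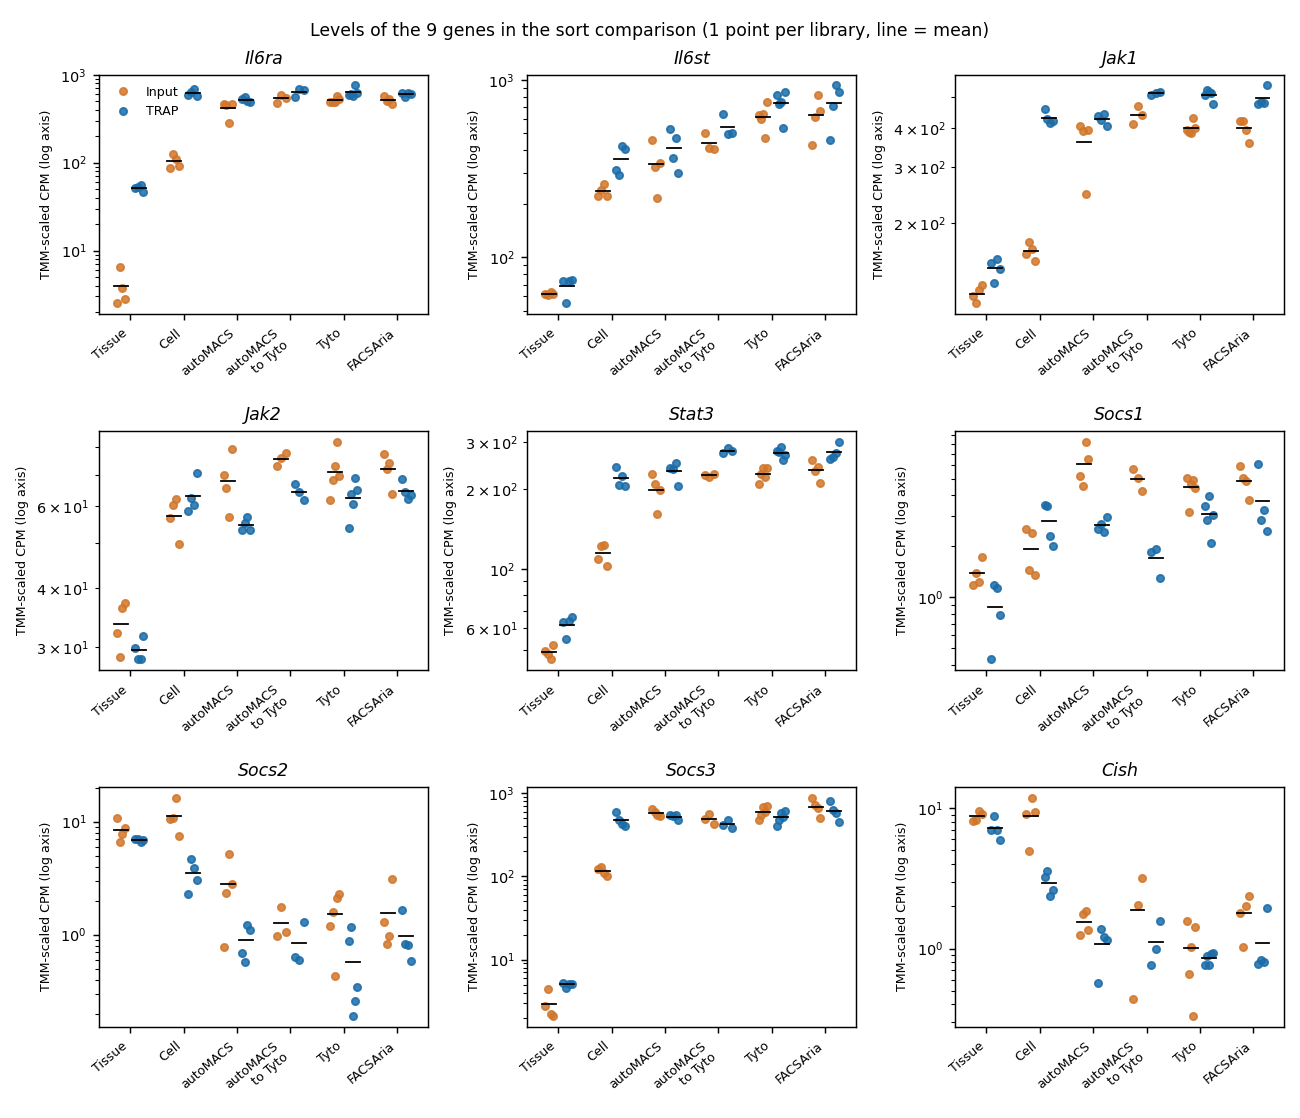
Level of each of the 9 genes in the sort comparison, in TMM-scaled CPM on a log axis, with 1 point per library (orange Input, blue TRAP), a line at each group's mean and groups on the horizontal axis. Socs3 rises from about 5 CPM in Tissue-TRAP to between 379 and 812 CPM in every TRAP library of dissociated cells, and Cish and Socs2 run the other way.

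The receptor was high in dissociated cells. Il6ra (Entrez Gene 16194, mm10 chr3:89869324-89913162, minus strand) stood at 52, 52.3, 55 and 46.3 CPM in the 4 Tissue-TRAP libraries and at 596, 636, 682 and 573 CPM in Cell-TRAP. The groups were far apart, and the log2 difference was 3.60 ± 0.09 (SE), a 12.1-fold higher level in Cell-TRAP (edgeR, adjusted p = 1.92e-20). In Input, Il6ra was barely present in tissue, at 2.51, 6.45, 3.79 and 2.84 CPM, and reached 87.2, 125, 111 and 92.1 CPM in Cell-Input, a log2 difference of 4.73 ± 0.23. Il6st (Entrez Gene 16195) stood at 73.5, 54.9, 73.4 and 74.5 CPM in Tissue-TRAP and at 311, 291, 425 and 409 CPM in Cell-TRAP, again without overlap and higher by 2.38 ± 0.20 on the log2 scale. Its ratio was thus smaller than that of Il6ra, and its Input level was already 61.3 to 63.8 CPM in tissue.

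The kinases and Stat3 followed at smaller ratios. Jak1 was at 129 to 154 CPM in Tissue-TRAP and 415 to 459 CPM in Cell-TRAP, higher by 1.58 ± 0.06 on the log2 scale. Stat3 was at 54.8 to 66.3 CPM and then 205 to 241 CPM, higher by 1.82 ± 0.07. Jak2 was at 28.2 to 31.6 CPM and then 58.4 to 70.6 CPM, higher by 1.10 ± 0.07. For all 3 genes no Cell-TRAP library overlapped a Tissue-TRAP library. The share of all genes without overlap was not counted, here or in the comparisons below. In this one 12200 of 14953 genes had an unadjusted p under 0.05 in edgeR, so separation alone is no trait of these genes. The call on Jak2 depended on the setting: its difference was 0.76 with RLE size factors, 0.73 with a filter of at least 10 counts, 0.77 in DESeq2 and 0.66 in limma on the deposited log2 values, each under the fold change of 2 that a call required.

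Of the inhibitors, Socs3 moved most. Its mm10 position is chr11:117966087-117969366 on the minus strand (Entrez Gene 12702). Socs3 was at 5.28, 4.59, 5.11 and 5.14 CPM in Tissue-TRAP and at 590, 479, 433 and 409 CPM in Cell-TRAP. Every Cell-TRAP library thus lay far above every Tissue-TRAP library, and the fitted difference was 6.57 ± 0.19 on the log2 scale, 94.8-fold (adjusted p = 6.13e-20). In Input it rose from 2.12 to 4.49 CPM in tissue to 102 to 129 CPM in the suspension, by 5.33 ± 0.22 on the log2 scale.

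Socs1, a related inhibitor that blocks the kinases directly, was low everywhere. It stood at 0.43, 1.18, 1.13 and 0.782 CPM in Tissue-TRAP and at 3.50, 3.42, 2.30 and 1.99 CPM in Cell-TRAP, higher by 1.65 ± 0.33 (adjusted p = 7.59e-05) with no overlap. Cish (Entrez Gene 12700, chr9:107296689-107301961, plus strand) ran opposite to Socs3, at 6.94, 8.87, 7.02 and 5.92 CPM in Tissue-TRAP and 3.21, 3.58, 2.35 and 2.60 CPM in Cell-TRAP. All 4 Cell-TRAP libraries lay under all 4 Tissue-TRAP libraries, and the difference was -1.30 ± 0.28 (adjusted p = 0.000184). Socs2 was at 7.06, 6.95, 6.53 and 6.81 CPM in Tissue-TRAP and 2.28, 4.70, 3.90 and 3.02 CPM in Cell-TRAP, again without overlap. Its difference of -0.98 ± 0.36 had an adjusted p of 0.0155 but missed the fold change of 2, which it passed at -1.31 with RLE size factors and in DESeq2, at -1.47 in limma, at -1.04 in a fit of these groups alone, at -1.07 with the mouse as a block (adjusted p = 0.002), and without Cell-TRAP replicate 2 (-1.15) or 3 (-1.04). In Input neither gene differed between the suspension and tissue beyond its error, at 0.01 ± 0.37 for Cish and 0.41 ± 0.42 for Socs2.

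The promoters of Socs3 and Cish, the genes of the list that moved in opposite directions, are shown around their matches to the Stat recognition motif, read from RefSeq on GRCm38.p6, which shares its coordinates with mm10. The search covered 250 bases before to 50 after each start site for TTCNNNGAA, which reads the same on both strands, and capitals mark the matches.
Socs3, chr11:117969502-117969530, minus strand: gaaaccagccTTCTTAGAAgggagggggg
Cish, chr9:107296654-107296683, plus strand: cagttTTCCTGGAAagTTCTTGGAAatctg
The Socs3 match began 154 bases before the start site, and the Cish pair began at the start site and 11 bases after it. These start sites are those of the promoter sequences. For Cish it lies upstream of the gene start given above, so that the pair lies wholly before that gene start. Promoters were matched for 8 of the 9 genes (Socs2 had no entry in the table used), and the other 6 held no match. Of all 32851 promoters 8.3% held at least 1 match and 0.457% held 2 or more. A match is a description of the sequence, and nothing on Stat binding was measured.

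In all, 8 of the 9 genes passed the call of adjusted p under 0.1 and a fold change over 2 between Cell-TRAP and Tissue-TRAP, 7 higher and 1 lower, where 54.3% of all 14953 genes tested did. The count was 9 in the fit that paired the hemispheres of a mouse as a block. The median log2 difference of the 9 genes was 1.65, beside -0.01 over all genes. Between Cell-Input and Tissue-Input 4 of the 9 were called (Il6ra, Il6st, Stat3 and Socs3, all higher with TMM scaling), beside 46% of all genes. The listed microglial markers were higher in Cell-Input in 10 of 10 cases, with a median log2 difference of 4.30. Summed endothelial markers were at 87.62 to 112.1 CPM in Tissue-Input and 1516 to 2753 CPM in Cell-Input, and oligodendrocytic ones at 3510 to 4193 and 11120 to 16560 CPM. Astrocytic ones were at 3395 to 3649 and 7555 to 10120 CPM, while neuronal ones fell from 6350 to 6640 CPM to 527.7 to 1168 CPM. The part of these cell types in the calls was not tested. Scaled to the study's 272 microglial markers, Il6st (-1.08) and Stat3 (-1.77) turned to lower there, and Il6ra (1.75) and Socs3 (2.35) stayed higher. That scale lowered all genes together, by less than the median of 4.30. All 9 genes were called on it, a count that is thus no result about these genes. With 10 of 10 microglial markers higher (median 2.68) and 8 of 8 neuronal markers lower (median -4.92) in Cell-TRAP, the scaling decided much of this picture. Summed endothelial markers were at 166.3 to 248.1 CPM in Tissue-TRAP and 1034 to 1143 CPM in Cell-TRAP. Astrocytic ones fell from 3302 to 5029 CPM to 1612 to 1807 CPM, and oligodendrocytic ones from 695.7 to 958.2 CPM to 453.8 to 660.2 CPM. The part of these shifts in the differences was not tested. When size factors were taken from 272 microglial markers the median of all genes shifted by -2.29, and the differences became 4.28 for Socs3, 1.30 for Il6ra and 0.09 for Il6st. On that scale Jak1 (-0.71), Jak2 (-1.20), Stat3 (-0.47) and Socs1 (-0.63) were lower in Cell-TRAP, as were Socs2 (-3.27) and Cish (-3.60). Socs3 and Il6ra were thus the genes of the list that were called higher in Cell-TRAP on both scales, and Cish was called lower on both. The 10 listed markers rose by more (median 2.68) than the second scale took away. That leaves the Il6ra call, at 1.30, less firm than that of Socs3, at 4.28.

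**Figure D2:**
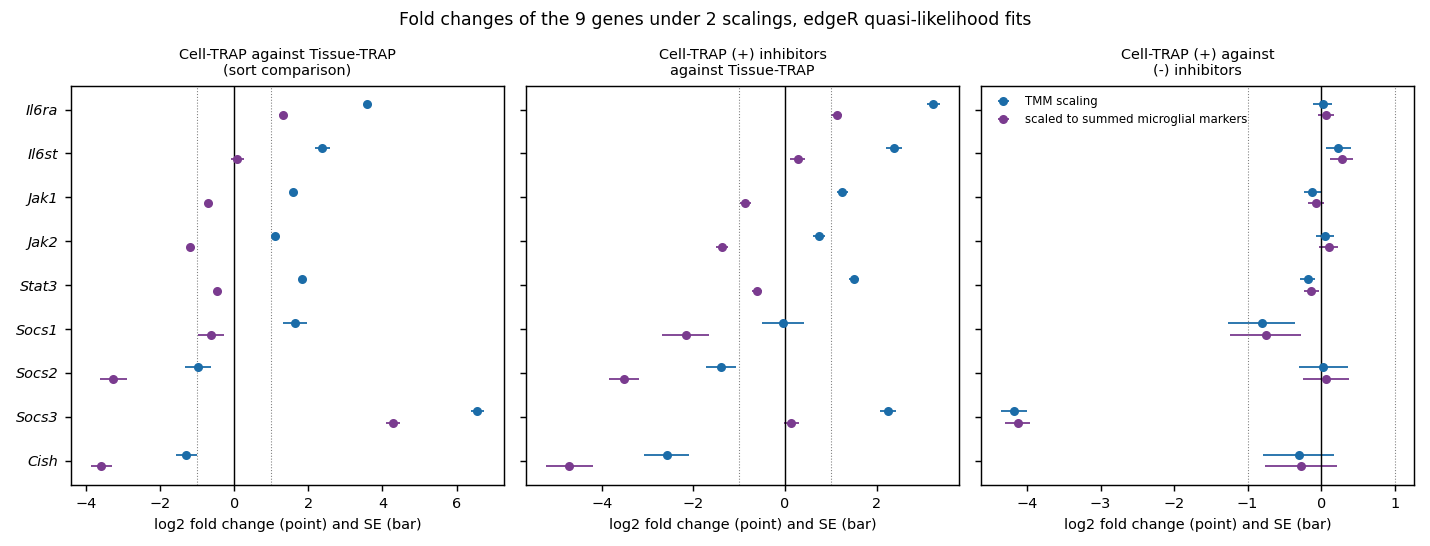
Log2 differences of the 9 genes in 3 comparisons of TRAP libraries (panels), with TMM scaling and with size factors from 272 microglial markers, as points with standard errors and dotted lines at a fold change of 2. Against tissue the second scale moves every gene to the left and leaves Socs3 at 4.28 and Il6ra at 1.30 for Cell-TRAP, while the Socs3 difference with against without inhibitors stays at -4.18 and -4.13.

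Sorting was then compared with the unsorted suspension. In TRAP, 2 of the 9 genes were called between the mean of the 4 sorts and Cell-TRAP, beside 24.4% of all genes, and both were lower after sorting. Cish fell by 1.51 on the log2 scale (SE 0.23, adjusted p = 3.63e-06), to group means between 0.849 and 1.11 CPM. Socs2 fell by 2.12 (SE 0.29, adjusted p = 7.73e-07), to group means between 0.569 and 0.963 CPM, and with a filter of at least 10 counts 1 gene was called in all. Astrocytic markers moved alongside, with a summed level of 1612 to 1807 CPM in Cell-TRAP and 127.2 to 224.1 CPM after the sorts, as did the neuronal markers above, and their part in the fall of Cish and Socs2 was not tested. Socs3 differed by 0.11 ± 0.11 and Il6ra by -0.07 ± 0.07 between the sorts and Cell-TRAP, less than 2 standard errors. In Input, where the unsorted suspension holds a mix of brain cell types with few neuronal transcripts left, 7 of the 9 were called, beside 51.8% of all genes. Socs3 (2.34), Il6ra (2.25), Socs1 (1.38), Jak1 (1.29) and Il6st (1.06) were higher and Cish (-2.54) and Socs2 (-2.73) lower. All 10 microglial markers were higher after the sorts as well, with a median of 2.67 and summed levels of 5152 to 6830 CPM in Cell-Input and 20340 to 42870 CPM in the sorts. All 8 astrocytic and 8 neuronal markers were lower, the former at 7555 to 10120 CPM and then 152.8 to 407 CPM, the latter at 527.7 to 1168 CPM and then 11.43 to 38.87 CPM, with none at 0 throughout a group. With microglial scaling the 5 higher genes changed sign, to -0.10 for Socs3 and -0.17 for Il6ra, neither of them called, and to -1.05 for Socs1, -1.15 for Jak1 and -1.38 for Il6st, while Cish (-4.98) and Socs2 (-5.13) stayed lower. The call on Il6st was lost with RLE size factors (0.85), in DESeq2 (0.85) and in limma (0.70), and that on Jak1 in limma (0.95). Stat3, at 0.95, passed in a fit of these groups alone (1.03). At a filter of 10 counts 3 genes were called, without Il6st (0.75) and Jak1 (0.98). One library, autoMACS-Input replicate 3, stood apart with Il6ra at 283.5 CPM, Jak1 at 247.5 CPM and a microglial marker sum of 20340 CPM against up to 39200 CPM in its group, and without it Il6ra stood at 2.29, Jak1 at 1.32 and the count at 7.

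Among the 4 sorts no gene of the list was called in either fraction. By the edgeR F test across the sorts in TRAP, 0 of the 9 were called, beside 4.17% of all genes, although 7 had an unadjusted p under 0.05 and 6 an adjusted p under 0.1, and limma called 0. The widest differences between any 2 sorts were 1.09 on the log2 scale for Socs1 (adjusted p = 0.102) and 0.83 for Il6st (adjusted p = 0.00492). Socs1 passed in a fit of the sorts alone (1.08, adjusted p = 0.0649) and when any of Tyto replicate 4 or FACSAria replicates 2 and 4 was left out, and Il6st passed without FACSAria replicate 1 (1.01). The Il6st levels were widely spread, at 299 to 529 CPM in autoMACS-TRAP, 494 to 641 CPM in autoMACS-to-Tyto-TRAP, 537 to 851 CPM in Tyto-TRAP and 457 to 930 CPM in FACSAria-TRAP. Only autoMACS and Tyto did not overlap. Socs3 was at 473 to 545 CPM, 379 to 475 CPM, 409 to 614 CPM and 454 to 812 CPM in the same order, with overlap between every pair.

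In Input the F test called 0 of the 9, beside 7.42% of all genes, with 1 at an unadjusted p under 0.05 and 0 by limma. That gene was Il6st, whose widest difference of 0.93 (adjusted p = 0.00452) passed the fold change without autoMACS replicate 1 (1.12) or FACSAria replicate 1 (1.07). A Tyto step after the autoMACS gave 0 calls in TRAP, beside 2.37% of all genes, and 0 in Input, beside 1.96%. Tyto against FACSAria also gave 0 calls in TRAP, beside 0.0936%, and 0 in Input, beside 0.476%. In these 4 comparisons edgeR gave 4, 1, 0 and 0 genes with an unadjusted p under 0.05, in the same order, and DESeq2 and limma called 0 in each. The 4 were Il6ra, Jak1, Stat3 and Jak2 after the added Tyto step in TRAP, with differences of at most 0.30.

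The preparation comparison asked what inhibitors added during dissociation change. Socs3 stood at 397, 458, 543 and 690 CPM in the TRAP libraries of cells dissociated without inhibitors, and at 28, 25.8, 28 and 33.2 CPM in those of the other hemispheres of the same mice with inhibitors. No library with inhibitors came near one without, and the difference was -4.18 ± 0.17 (adjusted p = 1.13e-11), an 18.2-fold lower level. It was -4.15 with the mouse as a block and -4.13 with microglial scaling. In Input Socs3 fell from 109, 153, 128 and 205 CPM to 11.5, 5.77, 12.7 and 15.6 CPM, by 3.70 on the log2 scale (SE 0.26, adjusted p = 2.36e-08). Socs3 was the 1 gene of the 9 called in TRAP, beside 0.638% of all genes, and the 1 called in Input, beside 0.311%.

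No other gene of the list was called. Il6ra was at 467, 566, 491 and 560 CPM without and at 489, 539, 500 and 582 CPM with inhibitors, a difference of 0.02 ± 0.13. The standard errors bound the other members less evenly: Il6st (0.23 ± 0.17), Jak1 (-0.12 ± 0.12), Jak2 (0.05 ± 0.12) and Stat3 (-0.18 ± 0.10) were measured closely, Socs2 (0.03 ± 0.33) and Cish (-0.31 ± 0.48) loosely. Socs1 stood at 3.47, 3.56, 4.18 and 5.44 CPM without and 2.13, 1.20, 3.13 and 3.02 CPM with inhibitors. All 4 libraries with inhibitors lay under all 4 without, but the difference of -0.81 ± 0.45 had an adjusted p of 0.692. Stat3 likewise did not overlap, at 225 to 247 CPM without and 209 to 216 CPM with inhibitors, and its adjusted p was 0.702.

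**Figure D3:**
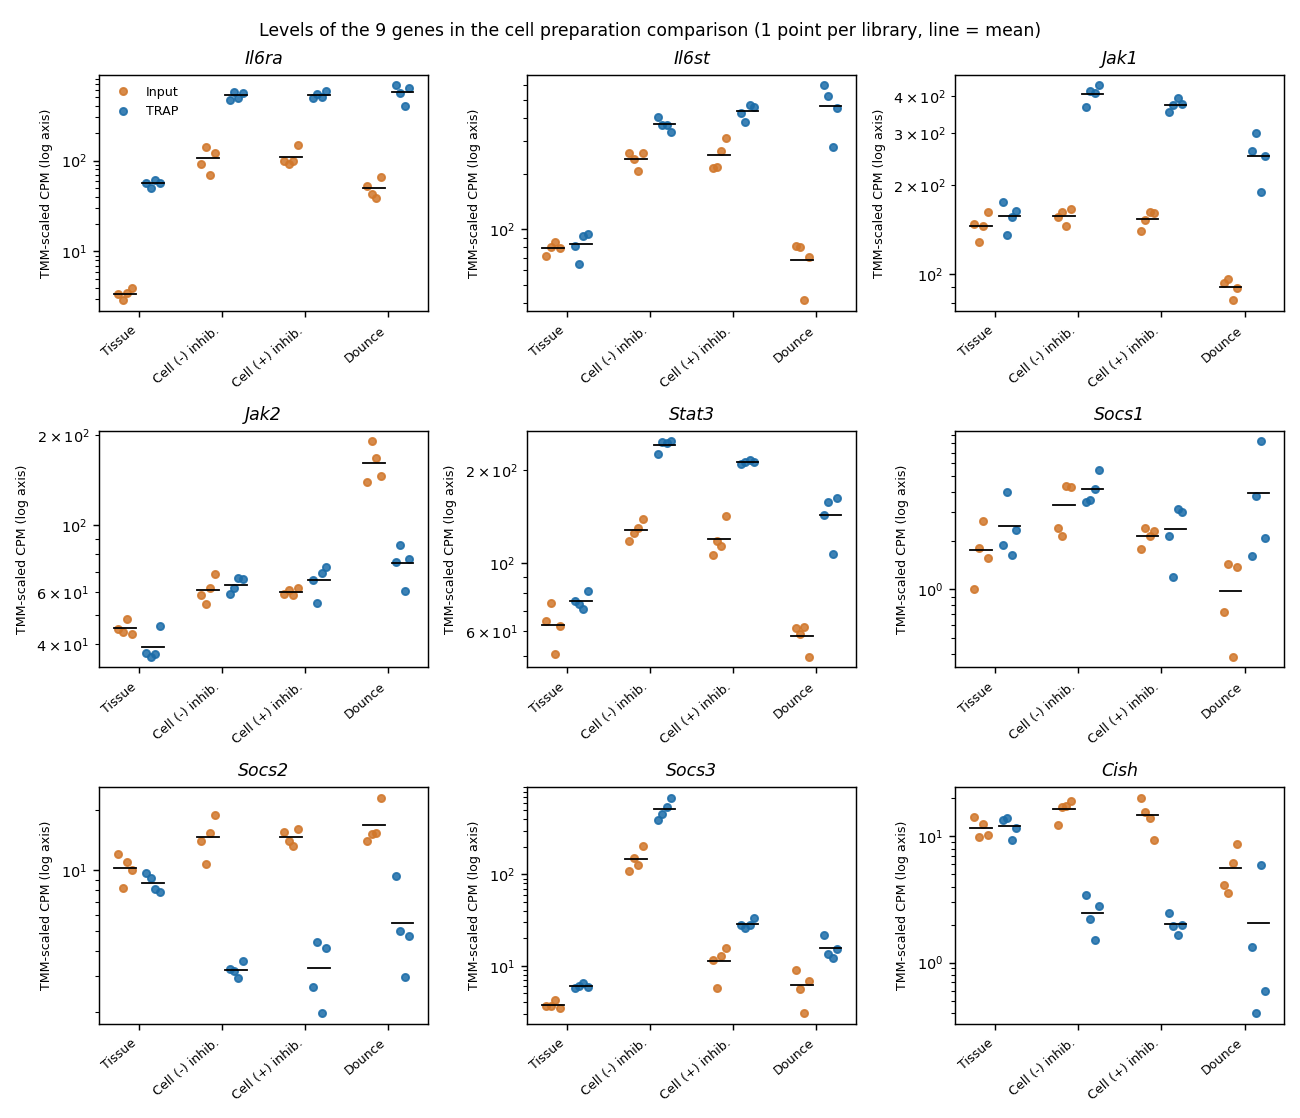
Level of each of the 9 genes in the preparation comparison, in TMM-scaled CPM on a log axis, with 1 point per library (orange Input, blue TRAP) and a line at each group's mean. Socs3 is the gene whose TRAP libraries with inhibitors (25.8 to 33.2 CPM) sit far from those without (397 to 690 CPM), and Jak2 stands out in Dounce-Input at 140 to 191 CPM.

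Against tissue, 7 of the 9 genes were called in TRAP for cells dissociated without inhibitors, beside 53.2% of all genes, and 7 for cells with inhibitors, beside 52.8%. In both, with TMM scaling, Il6ra, Il6st, Jak1, Stat3 and Socs3 were higher and Socs2 and Cish lower. Microglial markers moved alongside (10 of 10 higher in both, from 5917 to 7020 CPM in Tissue-TRAP to 36010 to 41630 CPM without and 38960 to 40680 CPM with inhibitors), as did neuronal ones (8 of 8 lower in both, from 6219 to 7275 CPM to 80.45 to 186.2 CPM and 49.11 to 162.9 CPM), with none at 0 throughout a group. With microglial scaling Jak1 (-0.79 without and -0.86 with inhibitors) and Stat3 (-0.48 and -0.62) turned to lower, Il6st was at -0.0013 and 0.28, and Il6ra was still higher (1.06 and 1.13) and Socs2 and Cish lower. These comparisons share their Tissue libraries with each other, and the Tissue mice with the sort comparison. Socs3 was higher than in Tissue-TRAP (5.68, 6.09, 6.49 and 5.93 CPM) by 6.43 ± 0.20 without inhibitors and by 2.25 ± 0.18 with them, which became 4.27 and 0.14 with microglial scaling. Socs1, not called at 0.76 ± 0.46 without inhibitors, passed without Tissue-TRAP replicate 2 (1.09). In Input, 4 of the 9 were called without inhibitors, beside 44.7% of all genes, and 3 with them, beside 45.6%, all of them higher. On the microglial scale all 9 were called in both, and Il6st (-1.51 without and -1.43 with inhibitors), Stat3 (-2.09 and -2.17) and, with inhibitors, Socs3 (-1.51) turned to lower. All genes were lowered together on that scale, so the count of 9 is no result about these genes. The summed microglial markers were at 319.4 to 353 CPM in Tissue-Input, 5592 to 9568 CPM without and 7579 to 11280 CPM with inhibitors. With TMM scaling the difference between the counts was Stat3, at 1.02 ± 0.12 and 0.93 ± 0.12, on either side of the fold threshold, and its call without inhibitors was lost with RLE size factors and DESeq2 (both 0.96) and without Tissue-Input replicate 3 (0.93) or Cell-Input replicate 4 (0.98), while with inhibitors it passed without Tissue-Input replicate 2 (1.02). Socs1, at 0.91 ± 0.39 without inhibitors, passed without Tissue-Input replicate 3 (1.18) or Cell-Input replicate 1 (1.03) or 2 (1.07).

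Dounce homogenization, a mechanical dispersal kept cold and without enzymes, left Socs3 low as well. The study reports the lowest RNA integrity and yield for Dounce-Input among the Inputs of this comparison. It also reports more biased coverage along genes in Dounce and Tissue libraries than in those of enzymatically dissociated cells. The part of RNA quality in the Dounce differences here and below was not tested. Dounce-TRAP held Socs3 at 21.9, 13.6, 12.3 and 15.2 CPM. That range lay above Tissue-TRAP and under the range with inhibitors without overlapping either. The log2 difference was 1.39 ± 0.20 against Tissue-TRAP, -5.04 ± 0.19 against cells without inhibitors (adjusted p = 3.07e-12) and -0.86 ± 0.18 against cells with them (adjusted p = 0.000626). The first of these turned to -0.42 with microglial scaling, and the last passed the fold change at -1.07 without Dounce replicate 1. Il6ra in Dounce-TRAP was at 674, 561, 397 and 623 CPM, overlapping the dissociated cells.

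In TRAP, 4 of the 9 genes were called between Dounce and tissue, beside 50.3% of all genes, with Il6ra (3.33), Il6st (2.48) and Socs3 higher and Cish (-2.70, or -3.99 without Dounce-TRAP replicate 3) lower. Jak2 (0.93) and Stat3 (0.93) lay close to the fold threshold. Jak2 passed without Tissue-TRAP replicate 4 (1.02) or Dounce-TRAP replicate 3 (1.01), and Stat3 without the latter (1.04). Socs2 (-0.64) lay further from the threshold, had 8 to 35 counts in Dounce-TRAP, and passed without Dounce-TRAP replicate 1 (-1.04). Against cells without inhibitors 1 of the 9 was called, Socs3, beside 28.7% of all genes. Against cells with inhibitors edgeR called 0, beside 29.1%, with 4 of the 9 at an unadjusted p under 0.05 and 0 called by DESeq2 or limma. Cish in Dounce-TRAP was at 1.33, 0.399, 5.97 and 0.595 CPM, so that 1 library stood over the other 3. Without that library Cish was lower than in cells without inhibitors (-1.71, adjusted p = 0.00568) and than in cells with them (-1.40, adjusted p = 0.0203).

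In Dounce-Input the gene that changed most beside the receptor, with TMM scaling, was a kinase. Jak2 was at 140, 191, 168 and 146 CPM in Dounce-Input and at 43.4 to 48.6 CPM in Tissue-Input, with no overlap, higher by 1.83 ± 0.10 (adjusted p = 1.1e-11). With microglial scaling the difference was 0.38 and no longer called, and the summed microglial markers were at 1953 to 3074 CPM in Dounce-Input. In TRAP of the same preparation, which was scaled separately, Jak2 was at 60.4 to 85.7 CPM. The fit that holds both fractions did not call Jak2 for Dounce, its adjusted p being under 0.1 but its fold change not over 2. The summed level of 8 blood markers (hemoglobins, S100a8 and others) was 11870 to 15030 CPM in Dounce-Input and 139.9 to 246.2 CPM in Tissue-Input, none of them at 0 throughout a group, but it was also 4890 to 11870 CPM in Cell-Input without inhibitors, where Jak2 was at 54.6 to 69 CPM. Its part in the Jak2 level was not tested. In all, 3 of the 9 genes were called between Dounce-Input and Tissue-Input, beside 50.1% of all genes, the other two being Il6ra (3.86) and Cish (-1.10). The call on Cish was lost without Tissue-Input replicate 1 (-0.99) or Dounce-Input replicate 1 (-0.97) or 2 (-0.94), and Socs1 (-0.80 ± 0.44) passed without Dounce-Input replicate 2 (-1.09).

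Socs3 was also expressed per 100 counts of Il6ra, the receptor of the same pathway, a ratio within a library that needs no scaling and that was chosen after the values were seen. In TRAP its median was 9.71 in Tissue and 73.4 in Cell in the sort comparison. In the preparation comparison the medians were 10.6 in Tissue, 97.8 in cells without inhibitors, 5.65 with inhibitors and 2.77 in Dounce. The highest ratio with inhibitors was 5.73 and the lowest in Tissue 10, so that the order of these groups differed from that of the Socs3 levels. In Tissue-Input of the preparation comparison, where Il6ra stood at 2.89 to 3.93 CPM, the median was 113.6. It was 142.6 in Cell-Input without inhibitors, 10.99 with inhibitors and 11.63 in Dounce-Input. In the sort comparison it was 72.09 in Tissue-Input and 106.7 in Cell-Input. The ranges of Tissue-Input and Cell-Input without inhibitors overlapped in both comparisons, unlike those in TRAP. The ratio needs no scaling but can shift with the mix of cell types, and the part of that mix was not tested.

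**Figure D4:**
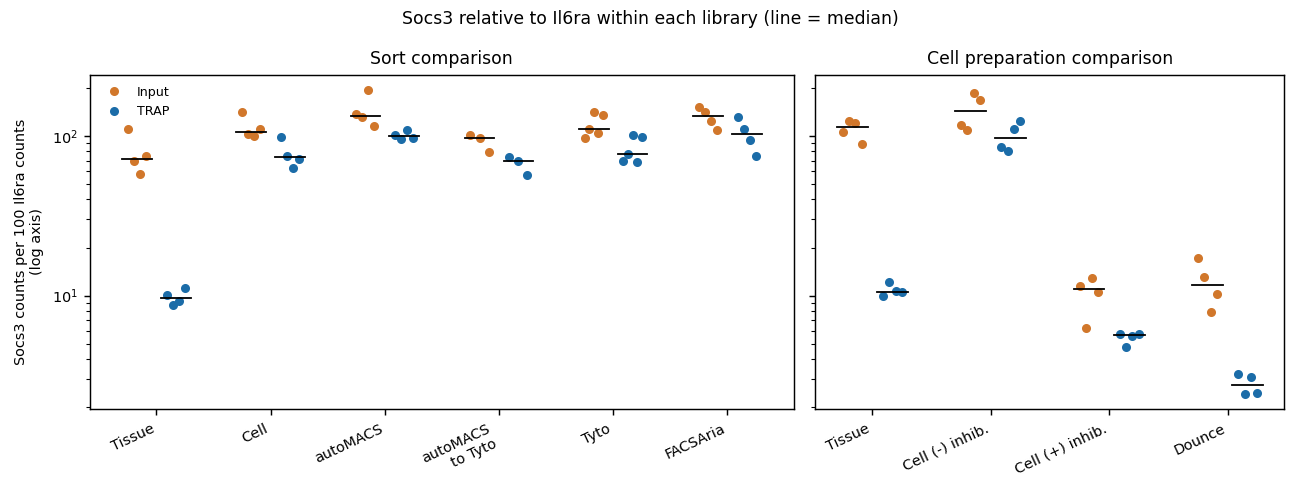
Counts of Socs3 per 100 counts of Il6ra in each library on a log axis, by group, for the sort comparison and the preparation comparison. TRAP libraries of cells dissociated without inhibitors lie between 56.9 and 132 in both comparisons, those of Tissue between 8.78 and 12.2, those with inhibitors between 4.78 and 5.73 and those of Dounce between 2.42 and 3.25.

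The pull-down itself separated the members. From tissue homogenate, 1 of the 9 genes was called between TRAP and Input in the sort comparison, beside 11.1% of all genes, and 1 in the preparation comparison, beside 10.5%. It was Il6ra both times, higher in TRAP by 3.92 ± 0.17 and by 4.24 ± 0.23. Socs3 was higher by 1.00 ± 0.21 (adjusted p = 0.00022) in the sort comparison and passed the fold change with the mouse as a block (1.00, adjusted p = 0.00234) and without mouse 947 (1.33). All 10 microglial markers were higher in TRAP in both comparisons, with medians of 4.47 and 4.66, while 0 of 8 neuronal markers were called. Jak2 (0.01 ± 0.09), Cish (-0.08 ± 0.32) and Socs2 (-0.11 ± 0.40) differed between the fractions by less than their errors.

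From the unsorted suspension, 6 of the 9 were called in the sort comparison, beside 47.6% of all genes. Il6ra (2.87), Socs3 (2.32), Jak1 (1.68) and Stat3 (1.22) were higher in TRAP, and Cish (-1.31) and Socs2 (-1.41) were lower. Markers of cell types moved alongside, with 10 of 10 microglial markers higher in TRAP (median 2.80), 8 of 8 astrocytic markers lower (-2.47) and 7 of 8 neuronal markers lower (-2.01), and their part in these differences was not tested. Stat3 missed the fold change with RLE size factors (0.81). When a mouse was left out and the scaling of all libraries kept, Stat3 stayed at 1.15 to 1.28 and was called each time, whereas Socs1 passed without mouse 948 (1.01). With the TMM factors computed again, all genes shifted by -0.24 to -0.27 in median and Stat3 came to 0.89 to 1.02. In the preparation comparison 5 were called without inhibitors, beside 47.3% of all genes, and 5 with inhibitors, beside 45.6%, the same genes less Stat3, and in both all 10 microglial markers were higher in TRAP and all 8 astrocytic and 8 neuronal markers lower. With the mouse as a block Stat3 passed in both (1.29 and 1.15; without inhibitors also with RLE size factors, 1.08), and Il6st passed with inhibitors (1.11). For Dounce 8 of the 9 were called, beside 47.5%, with Il6ra (3.87), Il6st (3.14), Socs1 (2.29), Jak1 (1.85), Socs3 (1.69) and Stat3 (1.67) higher in TRAP, and Socs2 (-1.21) and Cish (-1.24) lower. There 10 of 10 microglial markers were higher in TRAP, and 4 of 8 astrocytic and 7 of 8 neuronal markers lower. Mouse 181 weighed on both ends, since without it, at the scaling of all libraries, Socs1 was at 1.50 and Cish at -2.43, and with the scaling computed again at 1.19 and -2.74. The call on Cish was lost with the mouse as a block (-1.59, adjusted p = 0.133) and without mouse 180 (-0.98) or 182 (-0.67), and that on Socs2 without mouse 182 (-0.96).

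Once cells were sorted, fewer genes separated. TRAP against Input gave 2 calls of 9 for autoMACS, beside 17.5% of all genes (Socs1 at -1.16 and Socs2 at -1.56), and 0 without mouse 72. It gave 1 for autoMACS to Tyto, beside 5.4% (Socs1, -1.43), and 1 for Tyto, beside 17% (Socs2, -1.36), which became 0 without mouse 823 or 945, and in the fit with the mouse as a block, where Socs2 did not pass the count filter. For FACSAria 0 were called by edgeR, beside 10.3%, with 3 at an unadjusted p under 0.05. Socs3 lay between -0.15 and -0.06 and Il6ra between 0.30 and 0.36 in the 4 sorts.

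The change of the TRAP-to-Input ratio from tissue to suspension was tested as an interaction. In the sort comparison 6 of the 9 genes were called, beside 35.3% of all genes (5.74% larger and 29.5% smaller in Cell). The ratio was smaller for 9 of 10 microglial markers (median -1.68), 8 of 8 astrocytic and 8 of 8 neuronal markers. Their part in the differences of the 9 genes was not tested. The ratio was larger in Cell for Socs3 (1.32 ± 0.27), Socs1 (1.25 ± 0.42) and Jak1 (1.22 ± 0.11), and smaller for Il6ra (-1.05 ± 0.21), Cish (-1.22 ± 0.47) and Socs2 (-1.30 ± 0.57). The count was 3 with RLE size factors, under which Socs3 (1.00), Socs1 (0.93) and Jak1 (0.89) missed the fold change. When a mouse was left out at the scaling of all libraries, Socs3 (1.04 to 1.47), Socs1 (1.07 to 1.67) and Jak1 (1.16 to 1.27) were called each time. The calls on the genes with the smaller ratio were not as firm: Il6ra missed the fold change without mouse 946 (-0.94) or 949 (-0.99), and in edgeR the adjusted p no longer passed for Socs2 without mouse 946 (0.126), 948 (0.197) or 949 (0.10) and for Cish without mouse 948 (0.151). With the TMM factors computed again the median of all genes shifted by -0.18 to -0.21 and other genes lost the call, Socs3 reaching 0.84, Socs1 0.87 and Jak1 0.97 at the lowest. In the preparation comparison 4 were called, beside 38.6%, with Jak1 (1.07) larger and Il6ra (-1.91), Socs2 (-2.13) and Cish (-2.96) smaller. Of all genes in that comparison 2.86% were larger and 35.7% smaller. Again 9 of 10 microglial (median -2.31), 8 of 8 astrocytic and 8 of 8 neuronal markers were smaller. Socs3 was at 0.93 ± 0.36 there and passed with RLE size factors (1.09), with the mouse as a block (1.39) and without mouse 157 (1.01). The inhibitors changed the ratio of 0 of the 9 genes in edgeR, beside 0.145% of all genes, and 0 had an unadjusted p under 0.05. The ratio of Socs3 differed by -0.49 ± 0.31.

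The rest of the pathway was described by lists of other genes. Between Cell-TRAP and Tissue-TRAP, 5 of the 7 ligands tested (of 10 listed) were higher and 1 lower, with Osm (oncostatin M) at 4.84 ± 0.25 and Il6 itself at 4.03 ± 0.36. Il6 stood at 0.295 to 0.737 CPM in Tissue-TRAP and 5.57 to 8.03 CPM in Cell-TRAP, with no overlap. Of 14 other cytokine receptors that signal through Janus kinases (for gp130 cytokines, IL-10, interferons and colony-stimulating factors), 11 were higher and 1 lower, led by Il10ra (3.19), Osmr (2.84) and Ifngr1 (2.82), and of the 7 other kinases and Stats tested 6 were higher, Stat6 (2.43) and Tyk2 (2.05) among them. Of 12 other inhibitors, 6 were higher and 2 lower, with Socs4 at 3.07, the phosphatase Ptpn6 at 2.13 and Socs6 at 2.08. Of 10 known Stat3 targets 9 were higher, led by Junb (5.11), Icam1 (3.31) and Myc (3.18). These counts stand beside the 54.3% of all genes given above, of which 25.1% were higher and 29.3% lower. All are on TMM scaling, and the lists were not fitted on the microglial scale. The shift of all genes on that scale, given above, is larger than the differences of Tyk2, Ptpn6 and Socs6 here.

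With against without inhibitors, the receptors (0 of 14), kinases and Stats (0 of 7) and other inhibitors (0 of 12) held no called gene in TRAP, beside the 0.638% of all genes. Of 8 ligands tested, Osm was lower (-1.70 ± 0.28, adjusted p = 0.00192). Il6 was at 3.63 to 6.73 CPM without and 3.02 to 7.41 CPM with inhibitors, overlapping, and differed by -0.23 ± 0.41 (adjusted p = 0.981), a standard error within which a modest change cannot be told from none. Of the 10 Stat3 targets 4 were lower, among them Junb (-4.35 ± 0.19), Cebpb (-1.74 ± 0.21) and Pim1 (-2.09 ± 0.56). Stat3 activity was not measured in this comparison or the one against tissue, and its part in the levels of these targets was not tested. All 10 early response genes (Fos, Jun, Egr1 and others), listed as a check that the treatment acted, were lower, with a median of -5.41.

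Likeness of pattern was measured over the 24 TRAP libraries of the sort comparison as Pearson's r of log2(CPM + 1) among 14953 genes, a description that follows the gap between Tissue and all other groups. Socs3 was most like the early response genes Btg2 (0.998) and Atf3 (0.997), and Il6ra most like Tlr4 (0.998) and Ikzf1 (0.997). Stat3 lay nearest to the microglial genes P2rx7 and Csf1r (both 0.997), Jak1 to Ankfy1 (0.998) and Abca9 (0.997), Il6st to Ski (0.993) and Cd180 (0.992), and Jak2 to Creb3l2 (0.979) and Usp40 (0.978). Cish was nearest to Pfkp (0.978) and Kif21a (0.977), Socs2 to Nim1 (0.971) and the astrocytic gene Ndrg2 (0.966). Socs1 had no close match, with Bbc3 at 0.877 and Ppp1r15a at 0.864.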

How the data were processed

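Mouse brain RNA-Seq libraries were made from polyadenylated RNA, 1 per mouse, preparation and fraction. The authors trimmed the reads, aligned them directionally to mm10 in Strand NGS, removed duplicates and deposited an expected count per gene, mostly not whole, beside log2 values scaled by the DESeq2 method and centred on Tissue-Input. All 3 deposited tables were filtered by the authors on low counts.

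From these, expected counts were rounded to whole numbers and tested with the edgeR 4.0.16 quasi-likelihood test (R 4.3.3, TMM scaling), 1 fit for each table and fraction and 1 for each table with both fractions. A gene was kept where all libraries of some group in the fit exceeded 5 counts. A call needed an adjusted p (Benjamini-Hochberg over all genes tested) under 0.1 and a fold change over 2. Levels are TMM-scaled CPM, and errors of log2 differences are standard errors. The p-values measure the spread between the libraries within each group, 1 per mouse. Libraries of 1 mouse in different groups of a fit were taken as independent, among them those of mice in more than 1 sort and the 2 fractions of a mouse. Alternatives were RLE size factors, size factors from the study's list of 272 microglial markers, other filters, only the groups compared, DESeq2 1.42.0, limma 3.58.1 on the log2 values, the earlier table and each replicate left out. The last was repeated with the TMM factors and genes of the whole fit kept, an alternative chosen after seeing the data. Hemispheres and fractions of 1 mouse share its number in the labels. Deviations from the group means correlated within mice at 0.05 to 0.143 for Cell-TRAP and Tissue-TRAP, 0.065 to 0.448 with and without inhibitors in TRAP, and 0.105 to 0.413 between fractions, but at -0.057 to 0.089 between Inputs. The mouse was fitted as a block in an alternative, but not for the sorts against Cell or the F test across sorts.

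All 9 genes are named. Of the fixed lists of other pathway genes, at most 3 called genes with the largest change per list and main comparison are named, and of likeness the 2 closest genes. Some genes that this rule would name are not reported here. The members, lists and tests were chosen with earlier results of these data known. The tests were first tried on simulated counts with known changes. Gene positions are those of the deposited tables (mm10), and exon lengths come from GENCODE vM21. No protein sequence was used here.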

Additional observations from a re-analysis of the deposited data

Results flagged for a closer look

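Among 162 sets of 4 or 5 libraries (a gene in a group), the extreme library lay far from its group by Dixon's test in 11. Chance flags about 1 in 20 groups. In Dounce-TRAP, Cish was 5.97 CPM in replicate 3, where the next was 1.33. In FACSAria-TRAP replicate 4, from mouse 991, Cish was 1.95 CPM and Jak1 544 CPM, both the highest of 4. In autoMACS-Input replicate 3, from mouse 72, Il6ra was 283.5 CPM and Jak1 247.5 CPM, both the lowest of 4. Il6ra was 149.2 CPM in Cell-Input with inhibitors replicate 4, the highest of 4, and 755.8 CPM in Tyto-TRAP replicate 4, the highest of 5. Il6st was 54.9 CPM in Tissue-TRAP replicate 2 of the sort comparison, the lowest of 4. Jak2 was 45.9 CPM in Tissue-TRAP replicate 4 of the preparation comparison and Socs2 22.9 CPM in Dounce-Input replicate 4, each the highest of 4. Stat3 was 225.1 CPM in Cell-TRAP without inhibitors replicate 1, the lowest of 4.

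The ratio of TRAP to Input differed between Cell and Tissue, by the interaction test in edgeR, in 10 cases. Of all genes 35.3% were called in the sort comparison and 38.6% in the preparation comparison, most of them smaller in Cell. In the sort comparison the log2 difference of the ratios was -1.05 for Il6ra, 1.22 for Jak1, -1.22 for Cish, -1.30 for Socs2, 1.32 for Socs3 and 1.25 for Socs1. In the preparation comparison it was -1.91 for Il6ra, 1.07 for Jak1, -2.96 for Cish and -2.13 for Socs2.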

How the results depend on the processing

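A value is called reversed here where it changed sign and was called in either setting, and only the scaling to microglial markers did this. That scaling moved the median of all genes against tissue by -2.29 (Cell-TRAP, sort comparison), -2.16 (without inhibitors), -2.11 (with inhibitors) and -1.80 (Dounce) in TRAP, and by -2.996, -3.10, -3.08 and -1.47 in the same order in Input. RLE size factors moved it by -0.33 for Cell-TRAP against Tissue-TRAP. On the microglial scale Jak1, Jak2, Stat3 and Socs1 reversed in Cell-TRAP against Tissue-TRAP to -0.71, -1.20, -0.47 and -0.63. Without inhibitors they were -0.79, -1.47, -0.48 and -1.42 and Il6st was -0.0013. With inhibitors Jak1, Jak2 and Stat3 were -0.86, -1.37 and -0.62. For Dounce Jak1 was -1.13, Socs1 -1.14 and Socs3 -0.42. In Cell-Input against Tissue-Input Il6st, Jak1, Jak2, Stat3, Socs1, Socs2 and Cish were -1.08, -2.56, -2.24, -1.77, -2.50, -2.60 and -2.98 in the sort comparison, -1.51, -3.003, -2.68, -2.09, -2.17, -2.59 and -2.62 without inhibitors, and -1.43, -3.01, -2.68, -2.17, -2.79, -2.58 and -2.72 with inhibitors, where Socs3 was -1.51. For the sorts against Cell-Input Il6ra was -0.17, Il6st -1.38, Jak1 -1.15, Jak2 -2.11, Stat3 -1.48, Socs1 -1.05 and Socs3 -0.0955. Numbers called became 5 for Cell-TRAP against Tissue-TRAP, 1 across the sorts in TRAP, 2 for Dounce-TRAP against cells without inhibitors, 1 against cells with them, and in Input against tissue 9 for Cell in the sort comparison, 9 without inhibitors, 9 with inhibitors and 6 for Dounce. These counts stand without a share over all genes. Against tissue the scaling moved all genes together, so the counts there are no result about the 9 genes.

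Of the other settings, a filter of at least 10 counts in every sample left 1 call for the sorts against Cell-TRAP, where Socs2 could not be tested, and 3 against Cell-Input, where Cish and Socs2 could not be tested and Il6st and Jak1 missed the fold change. A fit of the sorts alone gave 1 call across sorts in TRAP, RLE size factors gave 3 for the interaction in the sort comparison, and the mouse as a block gave 2 for TRAP against Input in tissue and 0 in Tyto. The block changed 7 single calls, each given with its result above, and no other. Leaving out a replicate gave 0 to 1 calls across the sorts in TRAP and 0 to 1 in Input, 1 to 2 for Dounce against cells without inhibitors, 0 to 1 against cells with them, 1 to 2 for TRAP against Input in tissue, 0 to 2 in autoMACS and 0 to 1 in Tyto. Without Tyto-Input replicate 4 Stat3 (sorts against Cell) and Il6st (widest difference across sorts) passed at 1.02 and 1.00 with the TMM factors computed again, and neither passed with the scaling of all libraries kept. All other counts of called genes stayed within 1.5 times their value. The Wald test of DESeq2 was not run for the F test across sorts. The cause of these changes was not tested beyond what each setting's construction shows. Socs1, Socs2 and Cish had few counts in most TRAP libraries, which limits their precision.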

Other observations

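Mice that gave libraries to more than 1 sort allow the Il6st levels in TRAP to be set side by side. Mouse 991 had 818 CPM after Tyto and 859 CPM after FACSAria, mouse 69 had 731 and 711 CPM, and mouse 945 had 851 and 930 CPM. Mouse 66 had 529 CPM after autoMACS and 641 CPM after autoMACS to Tyto, mouse 67 had 361 and 494 CPM, and mouse 73 had 299 and 498 CPM. The values were higher after the added Tyto step in all 3 mice, a comparison picked after the values were seen and not tested.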
